A study of Mus musculus with 282 samples.

Results

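Fkbp5, Sgk1, Tsc22d3, Sult1a1, Cdkn1a, Txnip, Pdk4 and Nfkbia are 8 genes whose transcripts are known to rise with glucocorticoids, and their hypothalamic levels were compared between and within mouse strains. They were chosen by gene name, and all 8 were found in the deposited assembly, against 14079 gene rows in all. Of these, 7 had a gene row of their own, while Sult1a1 shared a joined row with its neighbours Coro1a and Slx1b and was therefore measured by its own transcript. The name of the group is background knowledge, since no mouse was labelled as treated with a glucocorticoid and no hormone level was analysed here.

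The samples are 282 libraries of whole hypothalamus, each from 1 male mouse of an inbred or recombinant inbred strain fed a high fat diet, so sex and diet were shared by every group and no control diet was compared. The columns of mice OB-273 and OB-274 of CXB-6/ByJ differed only by a factor of 1.0049 over all gene rows, which is less than sampling noise, and they were averaged and counted as 1 sample. The strain was known for 280 of the resulting 281 samples, and 84 of the 99 strains had 3 samples, 13 had 2 and 2 had 1. The recombinant sets were 18 AXB/BXA strains (47 mice) from A/J and C57BL/6J, 43 BXD strains (126 mice) from C57BL/6J and DBA/2J, 6 BXH strains (16 mice) from C57BL/6J and C3H/HeJ and 7 CXB strains (20 samples) from BALB/cJ and C57BL/6J, and 25 strains (71 mice) were classical inbred strains. The age of the mice, the length of the diet and the hour of tissue collection are not given in the sources used here.

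Glucocorticoids are steroid hormones of the adrenal cortex that are released under stress and in a daily rhythm, and they act through the glucocorticoid receptor, which enters the nucleus and binds DNA near its target genes. The hypothalamus both starts this hormone axis, through corticotropin-releasing hormone, and is a target of its feedback. The 8 genes act at different steps: a chaperone of the receptor itself (Fkbp5), a kinase that controls ion and nutrient transport (Sgk1), restraint of inflammation (Tsc22d3, Nfkbia), growth arrest (Cdkn1a), fuel use (Txnip, Pdk4) and conjugation of small phenols (Sult1a1). Each of them also answers to other signals, such as p53 for Cdkn1a, glucose for Txnip, fasting for Pdk4 and NF-kB for Nfkbia.

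Levels are given in FPKM, fragments scaled by the authors to transcript length and library size, and were tested as log2(FPKM + 1). A result was called at an adjusted p under 0.05 over all gene rows. The FPKM of all gene rows summed to between 322047 and 463433 in 281 mice, and to 792801 in mouse OB-547, a BXD-12/TyJ mouse. Several tests of the members and their pairs are also given without mouse OB-547. The gene lists, the most alike genes and the marker relations were read with that mouse included only. In RNA of a whole tissue, fewer cells of a type and less RNA per cell cannot be told apart. The summed level of the 5 hypothalamus markers with a row of their own ran from 504.1 to 7899 FPKM over mice, so no mouse had them at 0, and that of the anterior pituitary markers from 0.589 to 16462 FPKM around a median of 25.8.

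All 8 genes differed between strains, against 74.9% of all gene rows (80.9% without mouse OB-547), so that being called was the common case in these mice. The strain share of variance is 0 where mice of a strain are no more alike than other mice and 1 where they do not differ. It was 0.509 for Sgk1, 0.428 for Pdk4, 0.427 for Cdkn1a, 0.391 for Tsc22d3, 0.356 for Sult1a1, 0.329 for Nfkbia, 0.222 for Txnip and 0.190 for Fkbp5, beside a median of 0.221 over all gene rows. The share of Fkbp5 was higher than that of 43.2% of gene rows and the share of Sgk1 higher than that of 88.3%, so the genes ran from near the middle upward. The strains named below at the ends of each gene were picked by these same levels. That their mice stood apart is therefore a description and no test.

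Fkbp5, the co-chaperone that lowers the affinity of the glucocorticoid receptor for its hormone, lies on chromosome 17 of mm10 from 28399095 to 28486149 on the minus strand. Its lowest, median and highest levels over 281 samples were 5.03, 8.49 and 17.9 FPKM. The lowest strain mean was that of BXA-12/PgnJ, with mice at 6.53 and 6.46 FPKM. The highest were those of BXA-24/PgnJ, with 16.9 and 10.4 FPKM, BXA-2/PgnJ, with 12.9, 11.2 and 15.6 FPKM, and BXA-4/PgnJ, with 11.3, 8.47 and 15.7 FPKM. All 5 mice of the first 2 strains stood above both mice of the lowest strain, yet mice within the high strains differed by several FPKM. Strain means spanned 2.10-fold and the test between strains gave an adjusted p of 0.00231. It was the weakest of the 8, at 0.0489 with the mouse number as a covariate and 0.202 without replicate 2 of each strain.

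Sgk1, a serum- and glucocorticoid-regulated kinase that acts on ion channels and transporters, lies on chromosome 10 from 21882079 to 22000249 on the plus strand. The lowest, median and highest mice had 7.66, 14.9 and 65.8 FPKM. The 3 mice of 129X1/SvJ had 61.9, 65.8 and 37.7 FPKM, those of BXA-2/PgnJ 35.7, 50.5 and 42.9 FPKM, and those of BXD-24/TyJ 32.3, 26.9 and 63.3 FPKM. At the other end, BXD-38/TyJ had 8.77, 8.54 and 9.48 FPKM and AXB-8/PgnJ had 9.36 and 10.2 FPKM. The groups at the ends were far apart and strain means spanned 6.18-fold (adjusted p = 2.7e-15). In between, the order was gradual, and in 0 of 98 pairs of neighbours in the order of means did the mice fail to overlap.

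Most of the Sgk1 signal came from the start site at 21994666, at 10.2 FPKM on average or 55.1% of the gene's mean. Its strain share was 0.460, and its levels were 41.3, 45.8 and 22.0 FPKM in 129X1/SvJ and 4.35, 3.97 and 3.96 FPKM in BXD-38/TyJ. The start site at 21992223 was called as well, with a share of 0.357, as were those at 21882079 and 21996591. A further start site at 21882184 was not (share 0.0570, adjusted p = 0.239).

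Upstream of that start site, 1 of the 6 RefSeq promoter windows of Sgk1 held a full match to the glucocorticoid receptor element, searched on both strands as GNACA and TGTNC with 3 bases between them. The window at chr10:21993640-21993939 (GRCm38.p6, which has the coordinates of mm10, plus strand) is shown because the matching bases, from 21993702 to 21993714, lie 964 bases before the most abundant start site. Capitals mark matches to that element, to the shorter AGAACA site and, at the left end, to the E box CACGTG with an overlapping AGAACA site on the other strand.
Sgk1: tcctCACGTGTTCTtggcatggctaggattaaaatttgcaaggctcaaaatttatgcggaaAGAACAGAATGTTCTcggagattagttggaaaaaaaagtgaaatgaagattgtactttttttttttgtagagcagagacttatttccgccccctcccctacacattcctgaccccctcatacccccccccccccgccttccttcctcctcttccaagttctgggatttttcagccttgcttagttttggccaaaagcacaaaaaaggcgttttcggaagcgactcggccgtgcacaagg
The full element was present in 0.475% of 32851 promoter windows of all genes. A match describes letters only, and binding was not measured.

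Tsc22d3, the glucocorticoid-induced leucine zipper that restrains inflammatory transcription factors, lies on chromosome X from 140539464 to 140600659 on the minus strand and was the most abundant gene of the group. Its lowest, median and highest levels were 25.6, 37.6 and 89.9 FPKM, and the highest belonged to mouse OB-547, while the other mice of its strain had 42.2 and 28.1 FPKM. The 3 mice of BXA-2/PgnJ lay close together at 60.6, 61.9 and 60.2 FPKM, followed by BXA-24/PgnJ with 58.3 and 61.0 FPKM and LG/J with 63.6, 56.3 and 47.4 FPKM. The lowest strains were BXHA1, with 29.5 and 28.9 FPKM, and AXB-13/PgnJ, with 30.8, 29.5 and 27.9 FPKM. Mice of the 3 highest strains stood above all mice of these 2 strains, and strain means spanned 2.08-fold (adjusted p = 2.6e-09).

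The start sites of Tsc22d3 differed in their strain shares, and 3 of the 5 were called. The site at 140543187 averaged 19.7 FPKM and had a share of 0.476 (adjusted p = 5.2e-13). The site at 140542668, only 519 bases away, averaged 14.5 FPKM and was not called with all mice (share 0.111, adjusted p = 0.0768), but was called without mouse OB-547 (share 0.163, adjusted p = 0.0141) and under quantile normalization (share 0.156, adjusted p = 0.0183). At the first site BXA-2/PgnJ had 34.3, 40.6 and 44.7 FPKM against 12.4 and 10.5 FPKM in BXHA1. At the second, BXA-2/PgnJ had 19.8, 13.7 and 10.96 FPKM and BXHA1 had 12.2 and 13.7 FPKM, so the strains overlapped there. Mouse OB-547 had 78.9 FPKM at the second site, the highest of all mice. The other called sites, at 140548529 and 140600659, averaged 1.99 and 1.90 FPKM with shares of 0.138 and 0.131. Over all members, 12 of 18 start sites were called against 49.6% of all start sites, 15 of 24 transcripts against 45.9% of all transcripts and 9 of 11 coding sequences against 52.0% of all coding sequences. Whether the share differs between the 2 sites was not tested.

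**Figure D1:**
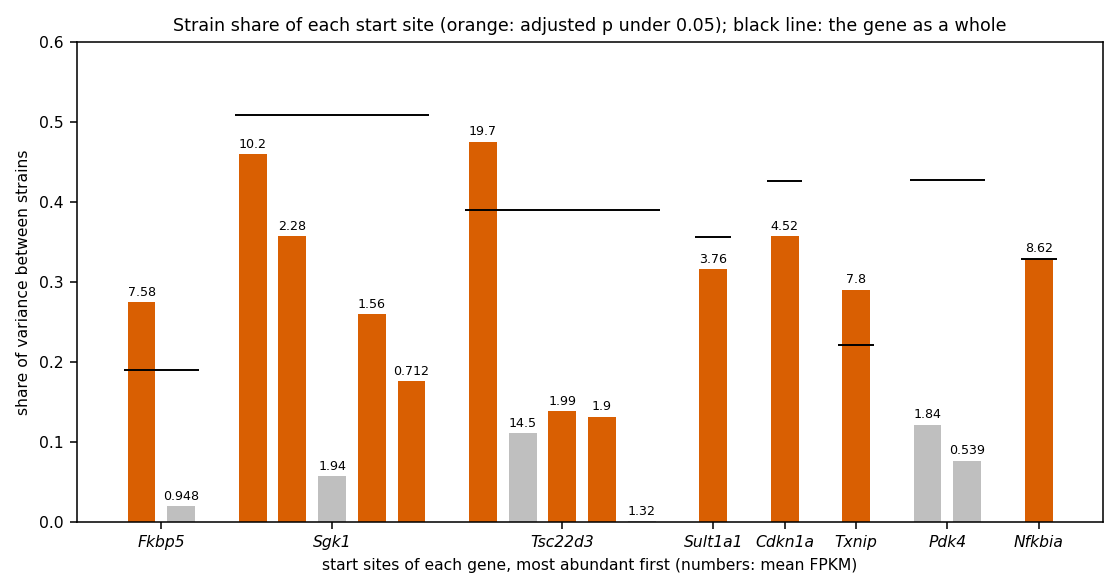
Strain share of variance (vertical axis, no unit) of each start site of the 8 genes, with bars in order of abundance within a gene, mean FPKM printed above each bar and a black line at the share of the gene as a whole. Orange bars are start sites past the threshold and grey bars are not: the main Sgk1 and Tsc22d3 start sites reach 0.460 and 0.476, and the second Tsc22d3 site, at 14.5 FPKM, stands at 0.111 with all mice and was called without mouse OB-547.

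Nfkbia encodes the inhibitor that holds NF-kB in the cytoplasm, and is induced both by glucocorticoids and by NF-kB itself. It lies on chromosome 12 from 55489411 to 55492647 on the minus strand, with a lowest, median and highest level of 4.94, 8.32 and 16.2 FPKM. The mice of BXA-2/PgnJ had 10.6, 13.0 and 15.0 FPKM, those of 129X1/SvJ 12.5, 12.1 and 11.5 FPKM and those of BXD-5/TyJ 11.4, 10.6 and 14.0 FPKM. The lowest strain, BXD86, had 6.53, 5.36 and 7.30 FPKM, and each mouse of the 3 highest strains was above it. Strain means spanned 2.01-fold (adjusted p = 5.1e-07). The promoter of Nfkbia (chr12:55492598-55492897, minus strand) held no match to the glucocorticoid receptor element or to AGAACA, and is shown for the NF-kB site, searched on both strands as GGGA and TTNCC with 1 base between them, which was present in 1.20% of all windows.
Nfkbia: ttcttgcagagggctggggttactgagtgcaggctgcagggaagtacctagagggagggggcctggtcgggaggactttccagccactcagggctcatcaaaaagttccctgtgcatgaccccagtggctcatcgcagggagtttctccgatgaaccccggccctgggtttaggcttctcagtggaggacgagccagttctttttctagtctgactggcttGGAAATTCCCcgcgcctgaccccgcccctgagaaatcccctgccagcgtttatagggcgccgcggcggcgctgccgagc
The capitals mark the single match, 29 bases before the annotated start.

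Cdkn1a, an inhibitor of cyclin-dependent kinases that halts the cell cycle, lies on chromosome 17 from 29093747 to 29100729 on the plus strand, close to Fkbp5. Its lowest, median and highest levels were 2.02, 4.31 and 16.5 FPKM. The highest strains were BXA-4/PgnJ, with 12.8, 6.96 and 15.3 FPKM, BXA-24/PgnJ, with 14.0 and 7.35 FPKM, and LG/J, with 11.5, 8.22 and 7.39 FPKM. The lowest were KK/HlJ, with 2.02, 2.204 and 2.82 FPKM, and AXB-20/PgnJ, with 2.58, 2.83 and 2.12 FPKM. These ends, picked by the same levels, did not overlap, and strain means spanned 4.96-fold (adjusted p = 5.9e-11). Within BXA-4/PgnJ and BXA-24/PgnJ the mice with more Cdkn1a were also those with more Fkbp5, which is taken up with the covariation within strains.

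Txnip, an inhibitor of thioredoxin that also limits glucose uptake, lies on chromosome 3 from 96557960 to 96561857 on the plus strand. Its lowest, median and highest levels were 3.85, 7.37 and 24.5 FPKM. The strains with the highest means were internally split: SM/J had 19.4, 22.6 and 3.85 FPKM, BXD51 had 20.4, 18.1 and 6.77 FPKM and C57BLKS/J had 24.5, 9.95 and 8.39 FPKM. The lowest strain, MA/MyJ, had 4.53, 5.08 and 3.88 FPKM, which overlapped with the lowest mouse of SM/J. The adjusted p between strains was 0.000446, but 0.304 without replicate 1 and 0.0603 without replicate 2, so the call was lost in both. The mice with high Txnip are described with the anterior pituitary markers.

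The promoter of Txnip (chr3:96557707-96558006, plus strand) is shown because it held 3 different kinds of match: a glucocorticoid receptor element, a forkhead site GTAAACA and the paired E boxes of the carbohydrate response element, searched as CACGNG and CNCGNG with 5 bases between them. They begin at bases 79, 130 and 166 of the window from its 5′ end, and such matches were present in 0.475%, 3.65% and 0.365% of all windows.
Txnip: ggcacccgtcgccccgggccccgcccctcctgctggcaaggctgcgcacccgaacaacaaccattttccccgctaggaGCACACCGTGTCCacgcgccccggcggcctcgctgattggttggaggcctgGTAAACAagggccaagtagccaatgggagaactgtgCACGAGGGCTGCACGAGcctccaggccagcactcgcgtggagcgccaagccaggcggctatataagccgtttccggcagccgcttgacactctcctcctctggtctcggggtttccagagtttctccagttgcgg

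Pdk4, a kinase that inactivates pyruvate dehydrogenase and so spares glucose in favour of fat, lies on chromosome 6 from 5483332 to 5496309 on the minus strand. Its lowest, median and highest levels were 1.47, 2.76 and 6.68 FPKM. BXA-2/PgnJ stood apart from all other strains with 5.94, 6.68 and 6.23 FPKM, followed by LG/J with 5.27, 4.61 and 3.88 FPKM and SM/J with 4.09, 5.35 and 3.29 FPKM. The lowest strain, CXB-11/HiAJ, had 1.82, 2.02 and 1.80 FPKM. Strain means spanned 3.35-fold (adjusted p = 6.3e-11), and BXA-2/PgnJ and LG/J were the neighbours in the order whose mice did not overlap. The start site at 5496309, at 1.84 FPKM, lay just outside the threshold (share 0.122, adjusted p = 0.0511) and was called without mouse OB-547 (adjusted p = 0.0423), while neither of its 2 transcripts was called with all mice.

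Sult1a1, a cytosolic sulfotransferase that conjugates phenols and phenolic drugs, was measured by its transcript on chromosome 7 from 126672865 to 126676432 on the minus strand. Its lowest, median and highest levels were 0, 2.77 and 8.72 FPKM, and 1 mouse of NZW/LacJ was listed at 0. Both mice of BXA-24/PgnJ were high at 7.37 and 6.96 FPKM, and SJL/J had 4.90 and 8.62 FPKM. BXD48 had 0.56, 1.18 and 1.06 FPKM, BXD-21/TyJ had 1.06, 0.46 and 1.72 FPKM and A/J had 1.205, 1.504 and 0.781 FPKM, all under the mice of the 2 highest strains. Strain means spanned 7.69-fold, the widest of the group, and the adjusted p was 4.5e-08. The joined row of Coro1a, Slx1b and Sult1a1, at 35.0 FPKM on average, was not called (share 0.0211, adjusted p = 0.374). The start site row at 126676432 averaged 3.76 FPKM against 2.92 FPKM of the transcript and was called (share 0.317). Per the authors' methods a start site row sums the transcripts that begin there. Only 1 transcript of Sult1a1 is listed at this site, so these rows do not match, and the reason is not known.

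The promoter of Sult1a1 (chr7:126676369-126676668, minus strand) is shown for its pair of AGAACA sites, one on each strand. AGAACA was present in 19.0% of all windows, and in 5 of the 16 windows of the 8 genes: 3 of Sgk1, 1 of Tsc22d3 and this one.
Sult1a1: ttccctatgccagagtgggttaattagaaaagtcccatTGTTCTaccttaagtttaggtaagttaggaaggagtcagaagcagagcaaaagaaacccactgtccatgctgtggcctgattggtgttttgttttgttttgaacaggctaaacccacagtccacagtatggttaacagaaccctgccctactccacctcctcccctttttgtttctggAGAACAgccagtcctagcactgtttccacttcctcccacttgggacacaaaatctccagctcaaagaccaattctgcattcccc
Of the other windows, that of Fkbp5 held an E box and no glucocorticoid receptor match, and those of Cdkn1a and Pdk4 held none of the motifs searched. No match says only that these letters are not in this window.

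**Figure D2:**
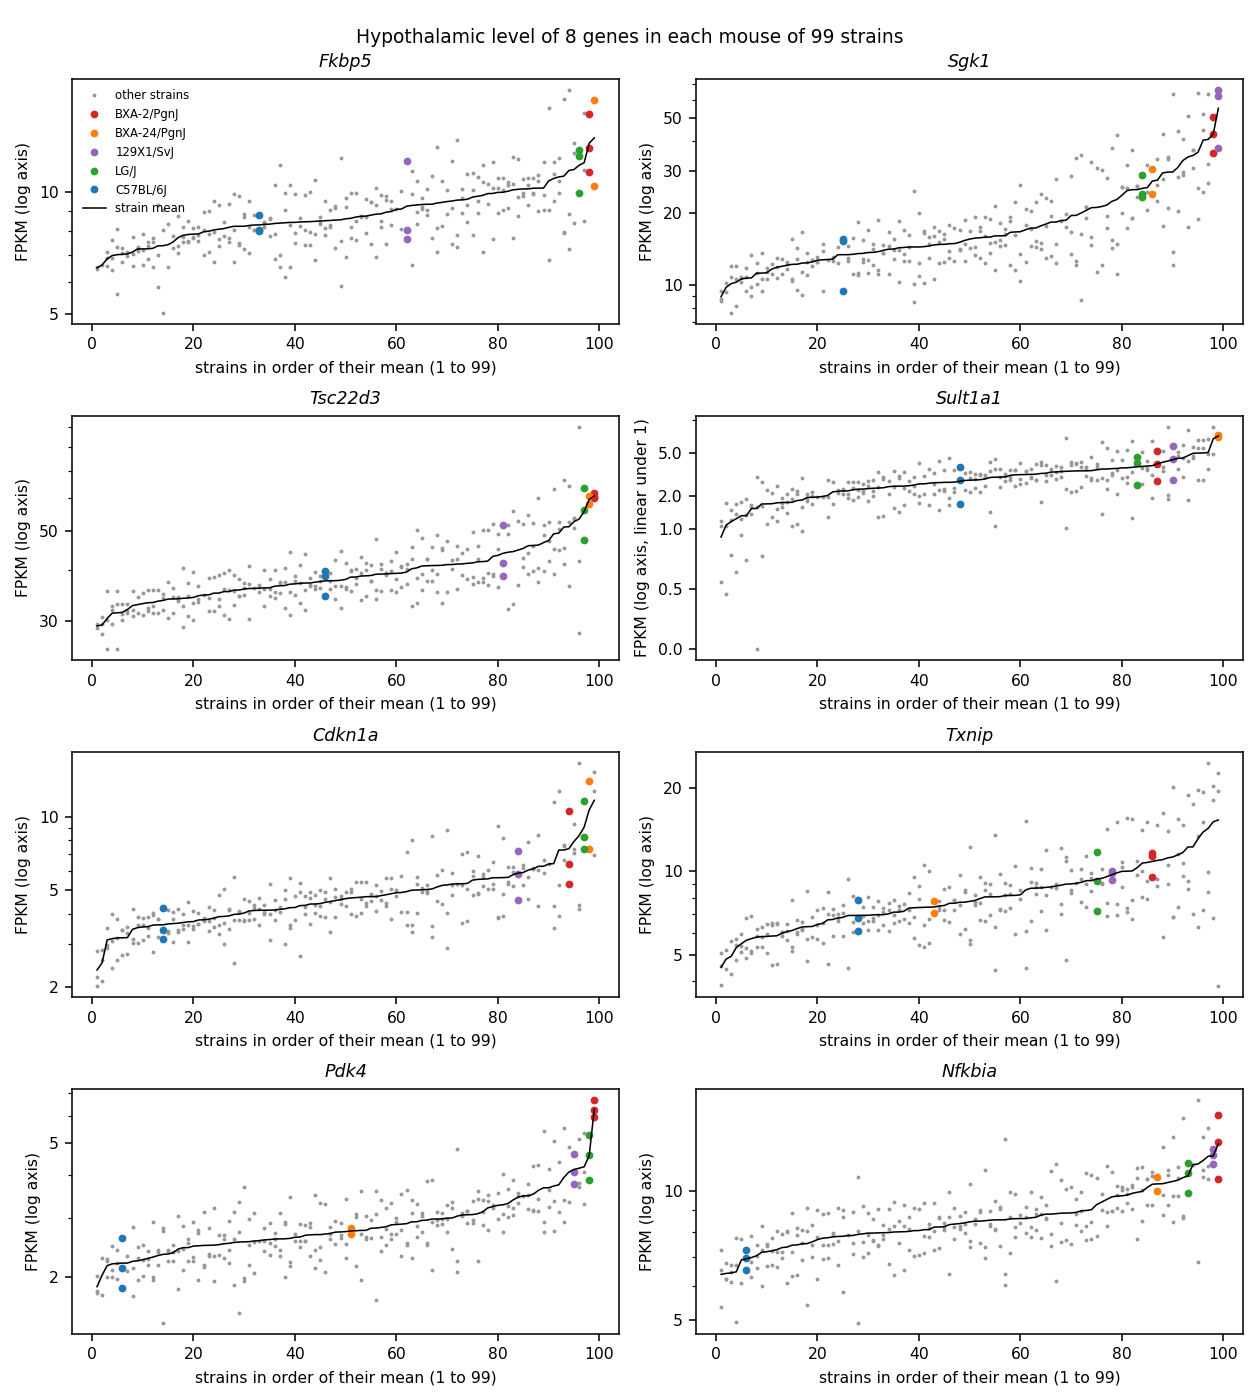
Level of each gene in every mouse (FPKM on a log axis, for Sult1a1 linear under 1) with the 99 strains in order of their mean from left to right, so that the order differs between panels. Points are mice, the black line joins strain means and coloured points are 5 named strains: BXA-2/PgnJ (red) stands at the right end for Fkbp5, Sgk1, Tsc22d3, Pdk4 and Nfkbia, while C57BL/6J (blue) never does.

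The same few strains filled the high ends. BXA-2/PgnJ was among the 3 highest strains for 5 genes, namely Fkbp5, Sgk1, Tsc22d3, Pdk4 and Nfkbia, and its lowest place from the top was 14, for Txnip. BXA-24/PgnJ was among the 3 highest for 4 genes, Fkbp5, Tsc22d3, Sult1a1 and Cdkn1a, but stood at place 57 for Txnip and 49 for Pdk4. LG/J was among them for Tsc22d3, Cdkn1a and Pdk4. In all, 12 strains filled the 24 highest places and 23 strains the 24 lowest, so the low ends were almost all different strains. BXD87 was the strain nearest to being low throughout, with places between 79 and 95 of 99 from the top.

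Between strains of 1 set, AXB/BXA strains differed in 7 of the 8 genes, against 22.1% of all gene rows, and Txnip did not pass there (adjusted p = 0.185). The largest shares in this set were those of Pdk4 (0.667) and Tsc22d3 (0.654), and Fkbp5 reached 0.437. BXD strains also differed in 7 genes, against 64% of all gene rows, with Fkbp5 not called (share 0.0787, adjusted p = 0.226), and Sgk1 had the largest share, 0.603. The classical inbred strains differed in 7 genes, against 47.4%, again without Fkbp5 (adjusted p = 0.153). Among the 6 BXH strains only Pdk4 was called (adjusted p = 0.00448), against 18.4%, although its share of 0.159 was under the median of 0.312 over all gene rows in this set. Tsc22d3 (share 0.703, adjusted p = 0.0566) and Cdkn1a (share 0.777, adjusted p = 0.116) were not called there, and without mouse OB-547 in the fit Tsc22d3 was (adjusted p = 0.0190), against 25.1%. Among the 7 CXB strains only Tsc22d3 was called (adjusted p = 0.0188), against 16.4%, and without mouse OB-547 also Sgk1 (adjusted p = 0.0449), against 27.5%. Whether the strain difference of Fkbp5 differs between sets was not tested.

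Between each founder of the sets and C57BL/6J, 1 contrast of a member was called. Pdk4 had 3.17, 3.14 and 4.26 FPKM in A/J and 1.86, 2.13 and 2.62 FPKM in C57BL/6J, without overlap, and was 0.50 ± 0.16 (SE) higher in A/J on the log2 scale (limma contrast, adjusted p = 0.0379), against 7.98% of all gene rows called. This call was lost when any replicate was left out, with adjusted p values of 0.108 to 0.216. No other member passed in A/J, nor in DBA/2J (6.85% of gene rows called), BALB/cJ (6.75%) or C3H/HeJ (7.56%), all compared with the same 3 mice of C57BL/6J. Sult1a1 was lower in A/J, at 1.205, 1.504 and 0.781 FPKM against 2.82, 1.68 and 3.71 FPKM, a log2 difference of -0.76 ± 0.33 (SE) that did not pass (adjusted p = 0.155). The founders could lie well inside the range of the strains descended from them: for Tsc22d3, A/J and C57BL/6J had strain means of 33.3 and 37.7 FPKM, and the AXB/BXA strains reached from 29.4 to 60.9 FPKM.

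Mice of 1 inbred strain share their genome, so deviations of mice from their strain mean leave out differences between strains. All 28 pairs of the 8 genes were positively correlated in these deviations over 280 samples. Pearson's r ran from 0.0872 to 0.608 with a median of 0.247, and from 0.0968 to 0.587 when the 2 mice farthest from the median were left out. Within strains, 22 of the 28 pairs had a permutation p under 0.05 for r and 21 for Spearman's rho (100000 shuffles of mice within strains, 2-sided), 5 of those for r at the smallest p that could be reached, 1e-05. These permutations were run for the 8 genes only, so no share over other gene pairs stands beside these counts. A pair was called where the limma slope passed over all gene rows in both directions, and 15 of 28 pairs were. With fewer mice, 10 pairs were called without replicate 1 of each strain, 6 without replicate 2 and 7 without replicate 3, all of them among the 15. How many of all gene rows were called in those fits is not given here.

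The strongest pairs were those of Sgk1 with Nfkbia (r of 0.608) and with Tsc22d3 (0.556), the kinase with the inhibitors of inflammation. Fkbp5 and Cdkn1a came next, with an r of 0.516, followed by Tsc22d3 with Cdkn1a (0.441) and with Nfkbia (0.411). By rank the order changed, and rho was only 0.276 for Fkbp5 with Cdkn1a. Higher rho values included those of Tsc22d3 with Nfkbia (0.371) and with Cdkn1a (0.362) and of Sgk1 with Cdkn1a (0.363). For Sgk1 and Nfkbia the value was 0.67 in AXB/BXA, 0.46 in BXD, 0.79 in BXH, 0.70 in CXB and 0.62 in inbred strains. SM/J gives an example, with Sgk1 at 14.3, 37.6 and 15.4 FPKM in its 3 mice and Nfkbia at 6.05, 13.2 and 6.41 FPKM in the same order. Fkbp5 and Cdkn1a both lie on chromosome 17. In BXA-4/PgnJ, Fkbp5 was 11.3, 8.47 and 15.7 FPKM where Cdkn1a was 12.8, 6.96 and 15.3 FPKM, and in BXA-24/PgnJ 16.9 and 10.4 FPKM where Cdkn1a was 14.0 and 7.35 FPKM. By set the r of Fkbp5 and Cdkn1a was 0.70 in AXB/BXA, 0.45 in BXD, 0.22 in BXH, 0.71 in CXB and 0.35 in inbred strains. Fkbp5 and Nfkbia had the lowest r of all, 0.0872, with a rho of 0.0254 (permutation p = 0.262 for r).

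**Figure D3:**
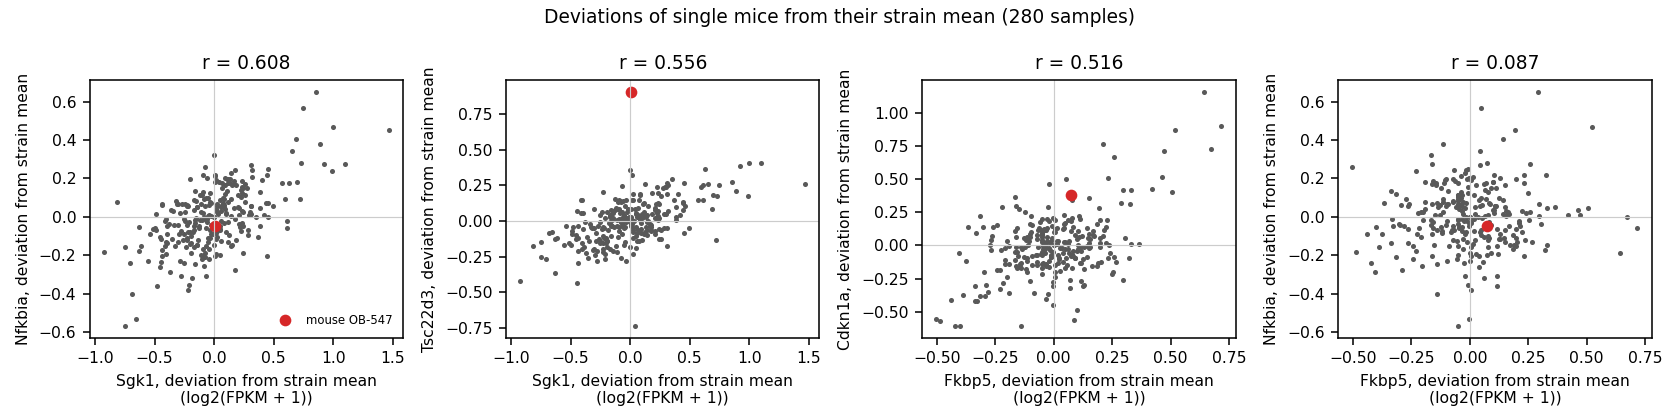
Deviations of single mice from their strain mean on the log2(FPKM + 1) scale for 4 pairs of genes, 1 point per sample (280 samples), with mouse OB-547 in red. The first 3 clouds rise from left to right, with r of 0.608, 0.556 and 0.516, and the last, Fkbp5 against Nfkbia, shows no such rise, with an r of 0.087.

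Counted from each gene, Tsc22d3 was followed upward by all 7 other members, but 29.1% of all gene rows also passed with it (11.2% without mouse OB-547). Sgk1 was followed by 4, against 0.888% of gene rows (1.1% without mouse OB-547), and Fkbp5 by 3, against 0.895% (1.19%). Cdkn1a was followed by 6, against 2.22%, and without mouse OB-547 by 4, against 1.04%. Nfkbia was followed by 4, against 3.60% (10.2% without mouse OB-547). Sult1a1 was followed by 4, against 9.0% (0.966% without mouse OB-547), and Txnip by 6, against 13.3% (6.97%). Pdk4 was followed by none, against 0.0426% (0.0213%). Its r with the other genes ran from 0.116 with Fkbp5 to 0.254 with Sgk1, and though it passed on Tsc22d3, none of its pairs passed in both directions. The calls of Tsc22d3 and Txnip were thus set among those of many other genes.

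When the first 5 principal components of the deviations were taken as covariates, 12 pairs were called, 10 of them among the 15, and the background of Tsc22d3 fell to 1.48%. Fkbp5 and Tsc22d3 then had an r of 0.36 and were called, in place of 0.19. In the 126 BXD mice the median r of the 28 pairs was 0.117 and 20 were positive, compared with 0.422 and 28 in AXB/BXA, 0.365 and 26 in BXH, 0.362 and 25 in CXB, and 0.276 and 28 in inbred strains. Among ordered pairs of members, the slope differed between sets for Sgk1 and Pdk4 on Tsc22d3, with which 13.4% of all gene rows differed, and neither was called without mouse OB-547. For slopes on the other genes the share of gene rows was 0.788% for Txnip, 0.0639% for Cdkn1a, 0.0142% for Nfkbia, 0.00710% each for Fkbp5 and Sult1a1 and 0% for Sgk1 and Pdk4.

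Between the means of 99 strains, all 28 pairs were again positive, with r from 0.155 to 0.715 and a median of 0.395. The permutation p was under 0.05 for 27 pairs by r and 25 by rho (100000 shuffles of strains, 2-sided), again without a share over other gene pairs. The pairs of Sgk1, Tsc22d3 and Nfkbia led, with r of 0.715 for Sgk1 and Nfkbia, 0.696 for Sgk1 and Tsc22d3 and 0.645 for Tsc22d3 and Nfkbia, followed by 0.564 for Fkbp5 and Tsc22d3. By limma, 17 pairs were called in both directions, 10 of which were also called within strains, and 6 pairs were called in neither. Positive calls among members numbered 6 of 7 for Sgk1 (0.874% of all gene rows) and Tsc22d3 (1.48%), and 5 for Nfkbia (0.398%), Fkbp5 (0.277%), Sult1a1 (0.689%) and Cdkn1a (0.220%). Pdk4 was called with 3 members, Sgk1, Tsc22d3 and Nfkbia, against 0.0852%, although it had no such pair within strains. Txnip passed with 1, against 2.46%, and in no pair in both directions.

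Fewer pairs were called in other fits between strains: 6 when strains BXA-2/PgnJ and BXA-24/PgnJ were left out, a choice made after seeing the data, 7 when the 2 most outlying strains on the x axis were dropped for each pair, and 6 on ranks. All 28 correlations stayed positive, with a median r of 0.332 without the 2 most outlying strains and a median rho of 0.328. The 3 pairs of Sgk1, Tsc22d3 and Nfkbia were called in each of these fits. The shares of all gene rows in them are not given here, so the background may have moved too. Strains of a set share founders and are not independent, and the median r over the 28 pairs was 0.555 in AXB/BXA, 0.333 in BXD, 0.286 in BXH, 0.359 in CXB and 0.337 in inbred strains. All 28 were positive in AXB/BXA, BXD and inbred strains, 18 among the 6 BXH strains and 21 among the 7 CXB strains.

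**Figure D4:**
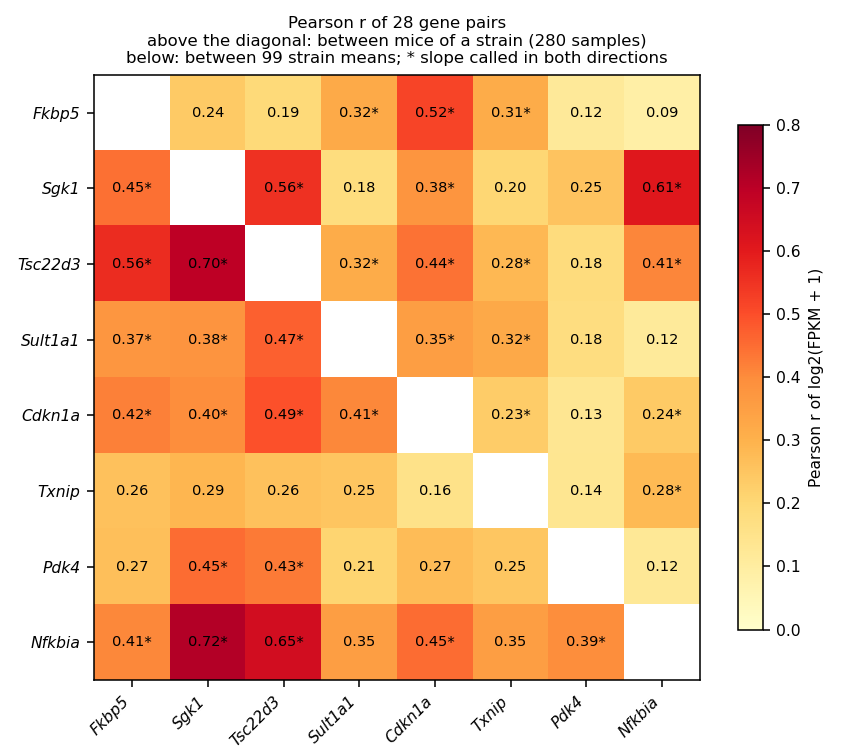
Pearson's r of log2(FPKM + 1) for the 28 pairs of genes, above the diagonal between mice of a strain (280 samples) and below it between 99 strain means, with colour from 0 to 0.8 and a star where the limma slope was called in both directions. Every r is positive, the darkest cells below the diagonal join Sgk1, Tsc22d3 and Nfkbia and those above it Sgk1 with Nfkbia, Sgk1 with Tsc22d3 and Fkbp5 with Cdkn1a, and the Pdk4 cells above the diagonal carry no star.

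The genes most like each member within strains, out of all gene rows, were in part known glucocorticoid targets outside the group. For Fkbp5 they were Plin4, a coat protein of lipid droplets, with an r of 0.560, the zinc finger factor Zbtb16 with 0.537 and Hif3a with 0.521. For Cdkn1a they were Plin4 with 0.625, the lipid transporter Mfsd2a with 0.536 and Hr with 0.520. Plin4 lies on the same chromosome, 27.7 Mb from Fkbp5 and 27.0 Mb from Cdkn1a, and it was also the third most alike to Sult1a1 (0.446), which lies on chromosome 7, after Mfsd2a (0.456) and a joined locus of Lrrc8a, Nup188 and Phyhd1 (0.446). Plin4 itself was low, at 0.946 FPKM on average.

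Sgk1 was most like the small GTPase Arl4d (0.662), Plekhf1 (0.612) and F3 (0.604), and Nfkbia like Arl4d (0.588), the mTOR inhibitor Ddit4 (0.574) and the kinase Pim3 (0.530). Tsc22d3 was most like Sdc4 (0.705), Rhou (0.654) and Zcchc24 (0.639). Pdk4 had no close likeness, with Dnaja4 (0.336), Daam2 (0.334) and Nde1 (0.325) at the top. Txnip was most like the pituitary hormone subunits Lhb (0.744) and Fshb (0.721) and a joined locus that holds Chgb (0.721).

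Between strain means, the transcription factor Klf15 was most like Tsc22d3 with an r of 0.790 and second to Net1 (0.711) for Sgk1 with 0.708. Plin4 (0.588), Zbtb16 (0.576) and Mertk (0.570) led for Fkbp5, and Ddit4 (0.716), Plekhf1 (0.649) and Mat2a (0.624) for Nfkbia. For Sult1a1 they were Prodh (0.695), Mfsd2a (0.662) and Plin4 (0.658), and for Cdkn1a Mat2a (0.507), Plin4 (0.506) and Mfsd2a (0.466). Pdk4 was most like Mxd4 (0.472), Adipor2 (0.440), which lies on the same chromosome 113.9 Mb away, and Cpm (0.430). For Txnip the list held an unnamed locus (0.769), Rcn3 (0.655) and Lhb (0.609).

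A list of 23 other genes known to rise with glucocorticoids was read off the same fits, with mouse OB-547 included. The list was chosen with earlier results of these data known and holds genes named above as most alike, such as Plin4 and Mfsd2a. Its counts are therefore a description and no independent test. Within strains, 18 of the 23 rose with Tsc22d3 (29.1% of all gene rows), 17 with Cdkn1a (2.22%), 14 with Sgk1 (0.888%), 14 with Nfkbia (3.60%), 9 with Fkbp5 (0.895%), 9 with Sult1a1 (9.0%) and 9 with Txnip (13.3%), and none rose with Pdk4 (0.0426%). With the first 5 principal components as covariates these counts were 17, 14, 16, 6, 11, 6, 12 and 0 in the same order. The shares of all gene rows in those fits were 1.48%, 0.952%, 0.646%, 0.220%, 1.11%, 0.661%, 6.23% and 0.0284%, again in that order. None of the list fell with any member, while negative slopes were called for 22.7% of all gene rows with Tsc22d3, 12.1% with Txnip, 7.40% with Sult1a1, 4.03% with Nfkbia, 2.01% with Cdkn1a, 0.341% with Sgk1, 0.298% with Fkbp5 and 0.0355% with Pdk4. The median r over the list was 0.348 with Sgk1, 0.343 with Tsc22d3, 0.317 with Cdkn1a, 0.242 with Nfkbia, 0.191 with Fkbp5, 0.162 with Txnip, 0.145 with Sult1a1 and 0.140 with Pdk4, while the median over all gene rows was 0.0262 with Tsc22d3 and nearer to 0 with every other member. The 4 genes with the largest median r were Plin4 (0.416, called with 5 members), Mfsd2a (0.398, with 7), Fam107a (0.369, with 6) and Glul (0.368, with 6). Mfsd2a passed with every member but Pdk4. Between strain means, 13 of the list rose with Tsc22d3 (1.48% of all gene rows), 11 with Sgk1 (0.874%) and 9 each with Sult1a1 (0.689%) and Nfkbia (0.398%). Fewer rose with the rest: 7 with Fkbp5 (0.277%), 6 with Cdkn1a (0.220%), 3 with Pdk4 (0.0852%) and 2 with Txnip (2.46%).

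**Figure D5:**
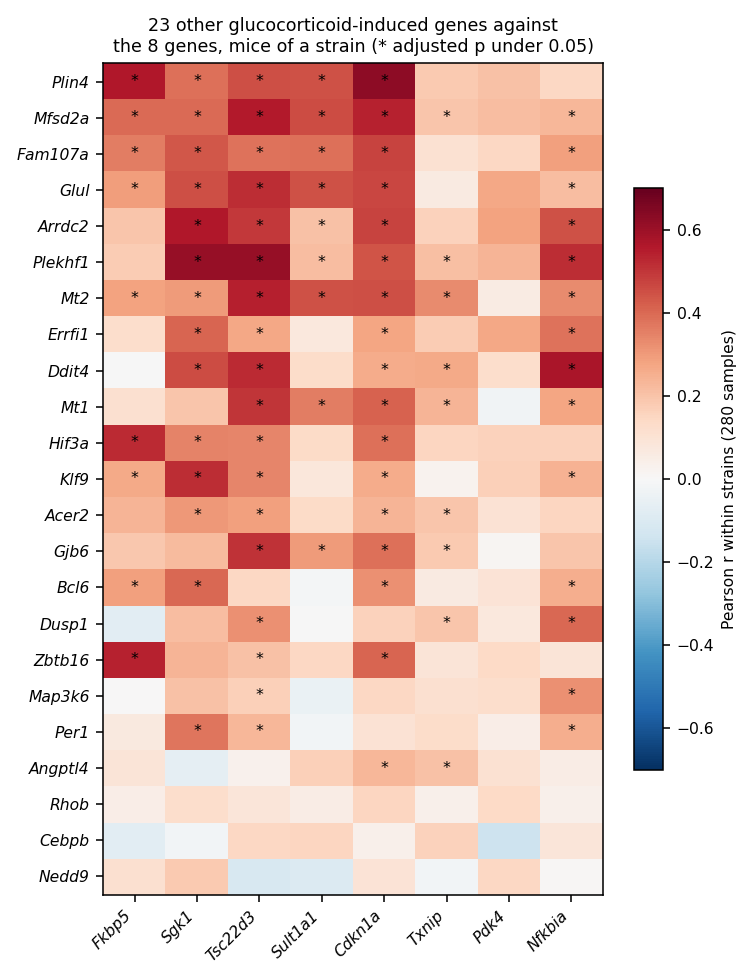
Pearson's r within strains (280 samples) of 23 other glucocorticoid-induced genes (rows) with the 8 genes (columns), colour from -0.7 (blue) to 0.7 (red) and a star at an adjusted p under 0.05 over all gene rows. Stars fill the columns of Tsc22d3 (18) and Cdkn1a (17), the Pdk4 column has none, and the upper rows, from Plin4 to Mt2, carry 5 to 7 stars each.

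Of 11 genes that receive and handle the hormone, 4 rose and 4 fell with Tsc22d3, with which 29.1% of all gene rows rose and 22.7% fell, and at most 1 rose and 2 fell with any other member. The glucocorticoid receptor gene Nr3c1, at 17.7 FPKM on average, had a median r of -0.179 over the members and rose with none, and the coactivator Ncoa1 had -0.147. The receptor co-chaperone Fkbp4 had 0.109 and the chaperone Hsp90aa1 -0.0884.

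Lists for the other signals that act on these genes were read in the same way. Of 10 p53 targets, 1 rose with Cdkn1a within strains (2.22% of all gene rows), 3 with Tsc22d3 (29.1%) and 3 with Txnip (13.3%), and Sesn1 was the one most alike to the members (median r 0.238, called with 5). Of 12 genes listed for the NF-kB system only 4 had a row of their own, so the list was read in small part. None of the 4 rose with Nfkbia (3.60% of all gene rows). The median r over the members was 0.170 for Rela, -0.112 for Nfkb2, 0.0888 for Nfkb1 and -0.0382 for Vcam1. Of 14 genes that answer to glucose or fasting, none rose with Pdk4, and 4 rose and 1 fell with Txnip (13.3% and 12.1% of all gene rows). From the same list, 3 rose with Fkbp5 (0.895%), 3 with Sult1a1 (9.0%) and 2 with Cdkn1a (2.22%). With Tsc22d3, 3 rose and 3 fell (29.1% and 22.7%), and 1 rose each with Sgk1 (0.888%) and Nfkbia (3.60%). Klf15 had the largest median r of that list, 0.338, and was called with 6 members. Of 13 clock genes, 5 fell and 2 rose with Tsc22d3 (22.7% and 29.1% of all gene rows). From that list 4 fell with Txnip (12.1%) and 1 with Sult1a1 (7.40%). Per1 rose with Sgk1 (r of 0.374, 0.888% of all gene rows), Tsc22d3 (0.231, 29.1%) and Nfkbia (0.254, 3.60%). Of 10 immediate early genes, 5 rose with Nfkbia (3.60%), 4 with Txnip (13.3%) and 3 with Tsc22d3 (29.1%). In that list 1 fell with Tsc22d3 (22.7%) and 1 with Fkbp5 (0.298%), and Dusp1 had the largest median r, 0.179. Per1 and Dusp1 also belong to the list of 23 above. Other genes of these lists, Klf15 included, may answer to glucocorticoids too, so their calls do not single out another signal.

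Txnip moved with markers of another tissue. Its r within strains with the mean of the anterior pituitary markers was 0.70 (rho 0.52) and 0.61 between strain means, where Fkbp5 had 0.305 and 0.212 and the other members stayed under 0.20. Of the 7 pituitary markers, 6 had a row of their own, and Gh, which encodes growth hormone, ran from 0 (in 13 mice) to 14329 FPKM. In SM/J, the mice with 19.4, 22.6 and 3.85 FPKM of Txnip had sums of 12411, 8795 and 8.49 FPKM. In BXD51 the sums were 8140, 4909 and 13.0 FPKM, and in C57BLKS/J 12689, 103 and 37.5 FPKM, with the mice in the same order as for Txnip above. Mouse OB-547 had Txnip at 20.1 FPKM on the gene row and a sum of 14.4 FPKM. The only Txnip start site, however, was listed at 2.44 FPKM in that mouse. The other mice of its strain had 6.83 and 6.82 FPKM on both rows. Smaller gaps between the 2 rows were present in other mice. At the start site SM/J had 16.9, 15.8 and 3.30 FPKM, and a C3H/HeJ mouse with 13.5 FPKM on the gene row had 8.81 FPKM. On average the start site held 94.3% of the gene's mean, and the reason for the gaps is not known. The Txnip values of mouse OB-547 thus conflict, so it is not a clear case of high Txnip. Txnip also had an r of -0.43 with the neuron markers and 0.56 with the hypothalamus markers, which include Pomc, a gene that pituitary cells also express.

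With the pituitary markers as a covariate, which was added after seeing the data, 13 pairs were called within strains. The r of Fkbp5 and Txnip was then 0.148 and no longer called, and that of Sgk1 and Txnip was 0.271 and was called. Between strain means 20 pairs were called with that covariate, in place of 17. Txnip still differed between strains with it (adjusted p = 2.8e-06), against 74.6% of all gene rows. For the pair counts with that covariate the shares of all gene rows are not given here.

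Other cell type markers had weaker relations within strains. Sult1a1 had an r of 0.325 with the mural and meningeal markers, Pdk4 of 0.27 with the astrocyte markers and Fkbp5 of -0.25 with the oligodendrocyte markers, where Tsc22d3 had 0.25. Tsc22d3 had 0.28 with the thalamus markers and -0.23 with the endothelial markers, and Nfkbia -0.21 with the endothelial markers. With 7 of the marker lists as covariates, 15 pairs were called, 12 of them among the 15 called without, and Sgk1 with Nfkbia and Tsc22d3 stayed called. The share of all gene rows called in this fit is likewise not given.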

How the data were processed

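RNA-Seq libraries of 282 mice were unstranded, so reads of overlapping antisense genes cannot be told apart. Mapping by the authors used STAR 2.3.1 and the mm10 genome. Cufflinks 2.2.0 built transcripts strain by strain, which were joined with GENCODE M2, and Cuffnorm 2.2.1 gave a value per mouse. The deposited table holds FPKM of genes, transcripts, start sites and coding sequences. Every gene row was above 0 in 100 or more mice and above 1 in 50 or more. The deposited assembly gives names and positions. FPKM hold no counts, so depth behind a value is not known from the table and precision is given as the spread between mice. Nothing says whether litter or cage was shared, and p values measure the spread between these mice.

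The columns of mice OB-273 and OB-274 were 1 profile rescaled (ratio of 1.00489 to 1.00491 over 13991 gene rows) and were averaged, which left 281 samples, 280 of them in comparisons. Columns were taken as 1 profile where the log2 ratio had an SD under 0.001. Groups were the labelled strains, and mouse OB-627, with 2 conflicting strain labels, was left out of comparisons. The members, gene lists and tests were chosen with earlier results of these data known. Values were tested as log2(FPKM + 1) with limma 3.58.1 in R 4.3.3, moderated F tests between strains and moderated slopes within strains and between strain means, adjusted by the Benjamini-Hochberg method over all gene rows at 0.05. Correlations used 100000 permutations (numpy 2.4.6, scipy 1.17.1, pandas 2.3.3 in Python 3.11.15), and figures matplotlib 3.10.9. The fits were tested on simulated data. Sult1a1 was to be read from its gene row, which turned out to join 3 genes, so its transcript took that place. Promoters of 250 bases before to 50 after each start were taken from RefSeq on GRCm38.p6, where all 8 genes were found.

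Genes named are the members, the 3 gene rows with the highest r with each within strains and between means, and at most 4 genes of each list by absolute median r. Strains named are the 3 lowest and 3 highest for each gene, and the founders. BXD87, Gh and Pomc were named after their values were seen. Alternatives were a pseudocount of 0.1, a filter at a mean of 1 FPKM, quantile normalization, covariates (mapping statistics, mouse number, marker lists or principal components), ranks, the Kruskal-Wallis test, strain set as covariate, founders alone, both placements of mouse OB-627, and leaving out replicates, mouse OB-547 or outlying strains. The joined Sult1a1 row, the pituitary covariate, the removal of BXA-2/PgnJ and BXA-24/PgnJ and the fit with the rescaled columns counted separately were added after seeing the data.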

Additional observations from a re-analysis of the deposited data

Results flagged for a closer look

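The slope of Sgk1 on Tsc22d3 within strains differed between the 5 strain sets (limma F test of the interaction, adjusted p = 0.0137, against 13.4% of all gene rows), at 1.89 in AXB/BXA, 0.650 in BXD, 2.51 in BXH, 1.78 in CXB and 1.29 in inbred strains on the log2(FPKM + 1) scale. The slope of Pdk4 on Tsc22d3 differed as well (adjusted p = 0.0214), at 0.355, -0.0751, 1.21, 0.228 and 0.575 in the same order. Mouse OB-547 is a BXD mouse with the highest Tsc22d3 of all. Without it the BXD slopes were 0.991 and 0.138, the adjusted p values 0.468 and 0.492, and 0 gene rows were called for Tsc22d3.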

How the results depend on the processing

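No paired analysis was possible because the titles carry mouse numbers and no replicate numbers shared between strains. Of the counts that answer a comparison, 99 settings stayed within 1.5 times the value reported and 16 did not. Without replicate 1, 2 or 3, gene rows differing between strains numbered 6421 to 8641 (10547 with all mice), pairs called within strains 6 to 10 (15), pairs called between strain means 12 to 17 (17), and founder contrasts called 0 (1), with fewer mice in each fit. Pairs between strain means fell to 6 on ranks, 6 without BXA-2/PgnJ and BXA-24/PgnJ and 7 without the 2 farthest strains. Members called among BXH strains rose from 1 to 2 under quantile normalization, with read covariates and without mouse OB-547. Without that mouse, members called among CXB strains rose from 1 to 2 and gene rows from 2312 to 3875. The member slopes that differed between sets went from 2 to 0 under quantile normalization and to 1 without mouse OB-547, which was Tsc22d3 on Txnip (adjusted p = 0.0327). Where not stated otherwise the cause was not tested. Of single values, 94 settings lost the call, 18 gained it, 0 reversed and the rest kept direction and side of the threshold. The counts of gene rows called between founders and C57BL/6J moved by more than 1.5 times in 10 settings. Among pairs within strains, Cdkn1a with Txnip and Cdkn1a with Nfkbia were lost without mouse OB-547, at r of 0.21 and 0.24. With the rescaled columns counted separately, 18 pairs were called between strain means and no count moved by over 1.5 times. Low FPKM limits Plin4, Pdk4 and Sult1a1, whose read numbers are not known from the table.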

Other observations

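Mouse OB-627, whose title and strain label name different AXB strains, had 7.18 FPKM of Fkbp5, 11.3 of Sgk1, 40.4 of Tsc22d3, 2.01 of Sult1a1, 5.22 of Cdkn1a, 4.80 of Txnip, 2.76 of Pdk4 and 7.97 of Nfkbia. Each value lay within the range of the other mice.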
